A study of Mus musculus with 45 samples.

Results

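The genes of complement and blood coagulation were followed in mouse liver over the course of regrowth that follows partial hepatectomy, the surgical removal of most of the organ's lobes. The set held 39 genes named by symbol and matched by Ensembl gene ID to the deposited count table of 19966 genes, and 38 of them were found there. Klkb1, which encodes plasma prekallikrein of the contact system, had no matching ID in the tables, and its levels were not analysed here. Gm45753, which is in the count table (median count 86), overlaps 43.2% of the Klkb1 exon bases on the same strand. It was not used in place of Klkb1. The complement members comprise 5 genes of lectin and classical initiation (Mbl1, Mbl2, Masp1, Masp2, C1s1), 5 of the C3 and C5 convertases (C2, C3, C4a, C4b, Cfb), 6 of terminal complement (Hc, C6, C8a, C8b, C8g, C9) and 4 regulators (Cfi, C4bp, Serping1, Vtn). The others comprise 3 measured genes of the contact system (F11, F12, Kng1), 7 vitamin K-dependent proteins (F2, F7, F9, F10, Proc, Pros1, Proz) and 5 genes of the cofactor, fibrinogen and cross-linking group (F5, F13b, Fga, Fgb, Fgg). A last group of 3 joins fibrinolysis and serpins (Plg, Serpinf2, Serpind1). All 38 passed the filter on low counts.

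The livers were Uhrf1hepKO (KO, by its name a knockout of Uhrf1 in hepatocytes) or wild type (WT), all from C57Bl/6 mice aged 8 to 12 weeks. The sources used here do not give the Cre driver, the allele or the number of animals. UHRF1 brings the maintenance DNA methyltransferase to newly replicated DNA. Sampling covered 8 conditions per genotype, which were baseline, 24 h, 30 h, 40 h, 48 h, 96 h, 7 days and 4 weeks after the operation, in 45 poly(A) libraries, with 3 libraries in 13 of the 16 groups and 2 in WT 30 h, WT 48 h and KO 7 days. The baseline libraries of both genotypes, to which every later time is compared, carry the prefix of the 40 h set in the submitters' names, and whether they share animals, days or runs with the 40 h libraries is not stated. Whether libraries of a group came from separate animals is not stated in the labels either, and the p-values reflect only the spread among these libraries, which may be technical.

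Hepatocytes make most of the complement and coagulation proteins of plasma. Complement is a cascade of proteases in which recognition molecules start cleavage of C4 and C2, convertases then cleave C3 and C5, and the later components assemble into a pore in the target membrane. Coagulation is a second cascade, started through tissue factor or contact activation, that ends with thrombin cleaving fibrinogen to fibrin, and plasmin dissolves the clot. Several of these genes, among them those of C3 and the fibrinogen chains, are known as acute phase genes, which the liver induces in response to IL-6 and related cytokines.

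Library totals ranged over 12851359 to 23133501 counts. Levels are CPM, counts scaled to the library total with TMM factors, fold changes are log2 with the standard error (SE), and a gene is called at a Benjamini-Hochberg adjusted p under 0.05 in edgeR's quasi-likelihood test. Uhrf1, the targeted gene, averaged 5.8 ± 2.81 CPM in KO and 66.4 ± 39.6 CPM in WT at 40 h (SD, n = 3 each, log2 fold change -3.52 ± 0.5 SE, adjusted p = 0.000314). Its log2 fold changes at baseline, 24, 30 and 48 h, 7 days and 4 weeks were -1.73, -1.67, -1.33, -1.97, -2.53 and -0.49, none of them called. At 30 h Uhrf1 averaged 12.9 ± 3.49 CPM in KO (n = 3) and 32.3 ± 6.0 CPM in WT (n = 2, adjusted p = 0.261). In the mean of the 8 conditions Uhrf1 was called at -1.44 ± 0.3 (adjusted p = 0.00335). At 96 h its level went the other way, with 1.37 ± 0.962 CPM in libraries labelled KO and 0.408 ± 0.339 CPM in libraries labelled WT (log2 1.73 ± 0.83, adjusted p = 0.165). The 96 h libraries also stood apart in the share of counts on Alb, at 14.6 to 19.9% where labelled KO and 7.23 to 12.4% where labelled WT. Genotype at 96 h is therefore given as labelled throughout, and the mean and joint tests are also given without those libraries. The 10 hepatocyte markers were detected, with summed levels of 76262 to 130254 CPM in KO and 77724 to 141314 CPM in WT libraries outside 96 h, and no marker of the list was at 0 in all libraries. In bulk tissue, fewer cells of a type and less RNA per cell cannot be told apart.

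At baseline the most abundant member mRNAs per length were those of C3, the component on which all complement pathways converge, and of Fga and Fgg, which encode chains of fibrinogen. In FPKM, a level per transcript length, C3 stood at 1820 ± 190.0 in KO and 1671 ± 344.0 in WT (SD, n = 3 each). Fgg stood at 1762 ± 215.0 FPKM in KO and 1634 ± 49.5 FPKM in WT, and Fga at 1802 ± 201 FPKM in KO and 1627 ± 45.4 FPKM in WT. These levels lay within each other's spread, so C3, Fgg and Fga had no clear order. Vtn, the gene of vitronectin, came next at 1239 ± 105.0 FPKM in KO and 1204 ± 14.6 FPKM in WT. At the other end were Masp1, a protease of the lectin pathway, at 21.8 ± 1.28 FPKM in KO and 18.0 ± 6.62 FPKM in WT, and Pros1, the gene of protein S, at 20.4 ± 1.95 FPKM in KO and 17.2 ± 2.53 FPKM in WT.

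The promoters of genes that rose and of one that fell at 24 h are shown, since these genes mark the opposite courses of the set. The sequences are the 250 bases before the RefSeq start of each gene (GRCm38.p6), 5′ to 3′ on the gene's strand, with capitals marking CTGGGA (the core of the IL-6 response element), GTTAAT (a half-site of HNF1) and TTGCNNAA (a C/EBP type motif), each searched on both strands.
Fga (chr3:83025903-83026152, plus strand): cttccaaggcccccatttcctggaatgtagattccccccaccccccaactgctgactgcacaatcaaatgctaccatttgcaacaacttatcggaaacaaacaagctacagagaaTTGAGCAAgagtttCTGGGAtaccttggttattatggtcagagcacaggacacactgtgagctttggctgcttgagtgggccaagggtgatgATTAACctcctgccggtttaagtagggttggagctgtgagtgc
Fgb (chr3:83049864-83050113, minus strand): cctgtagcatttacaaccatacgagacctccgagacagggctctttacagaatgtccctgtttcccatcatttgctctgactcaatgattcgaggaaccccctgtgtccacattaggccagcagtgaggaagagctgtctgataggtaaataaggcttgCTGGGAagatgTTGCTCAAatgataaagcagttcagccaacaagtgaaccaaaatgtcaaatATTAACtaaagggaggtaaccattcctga
Fgg (chr3:83007474-83007723, plus strand): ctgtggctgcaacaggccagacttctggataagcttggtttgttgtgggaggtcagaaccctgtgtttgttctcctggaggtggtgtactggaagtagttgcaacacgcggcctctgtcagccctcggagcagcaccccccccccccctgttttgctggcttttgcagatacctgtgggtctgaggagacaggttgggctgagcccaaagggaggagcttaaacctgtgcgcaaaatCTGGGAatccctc
C3 (chr17:57228137-57228386, minus strand): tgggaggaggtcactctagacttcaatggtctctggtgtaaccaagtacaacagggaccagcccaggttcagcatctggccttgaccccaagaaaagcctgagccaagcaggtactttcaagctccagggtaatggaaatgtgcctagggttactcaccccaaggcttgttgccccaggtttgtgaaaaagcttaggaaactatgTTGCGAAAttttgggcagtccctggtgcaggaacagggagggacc
C8b (chr4:104766067-104766316, plus strand): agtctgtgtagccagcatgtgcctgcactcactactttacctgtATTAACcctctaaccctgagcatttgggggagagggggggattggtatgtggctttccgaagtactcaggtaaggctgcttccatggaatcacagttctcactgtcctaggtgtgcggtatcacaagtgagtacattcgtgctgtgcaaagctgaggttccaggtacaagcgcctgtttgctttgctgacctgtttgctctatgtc
CTGGGA lay 121 to 116 bases before the start in Fga, 91 to 86 in Fgb and 13 to 8 in Fgg, and it was not in the windows of C3 and C8b. It occurred in 13 of the 29 members with a promoter in the RefSeq table (44.8%) and in 27.0% of 32851 promoters of the same length. GTTAAT occurred in 9 of the 29 (31.0%, against 6.43% of all promoters) and TTGCNNAA in 8 of the 29 (27.6%, against 9.56%). Klkb1, which has no levels here, is one of the 29 and is counted among those with CTGGGA and with TTGCNNAA. A member was counted if any promoter listed for it held the motif, while the share of all promoters counts each promoter singly. The shares are thus in unlike units, which can raise that of the members. A match is a description of these letters only, and the motifs did not overlap each other in the windows shown.

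At 24 h after surgery the set divided into genes that rose and genes that fell, in both genotypes. In KO livers 8 members rose and 14 fell against KO baseline at 24 h, where 23.7% of all 14090 genes tested were called, 11.5% higher and 12.2% lower. In WT livers 8 rose and 12 fell against WT baseline, where 22.4% of all genes were called, 10.5% higher and 11.9% lower. The comparisons of one genotype share its 3 baseline libraries. C3, C4bp, Pros1 and Fga were higher than baseline at each of 24, 30, 40 and 48 h in both genotypes. Lower at all 4 times in both genotypes were C2, C8b, C8g and Proc, and in KO the call was also made at all 4 for C1s1, F2, F7 and Serpind1. The median log2 fold change of the 38 members at 24 h was -0.15 in KO and -0.08 in WT, and over all genes -0.01 in KO and -0.00 in WT.

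**Figure D1:**
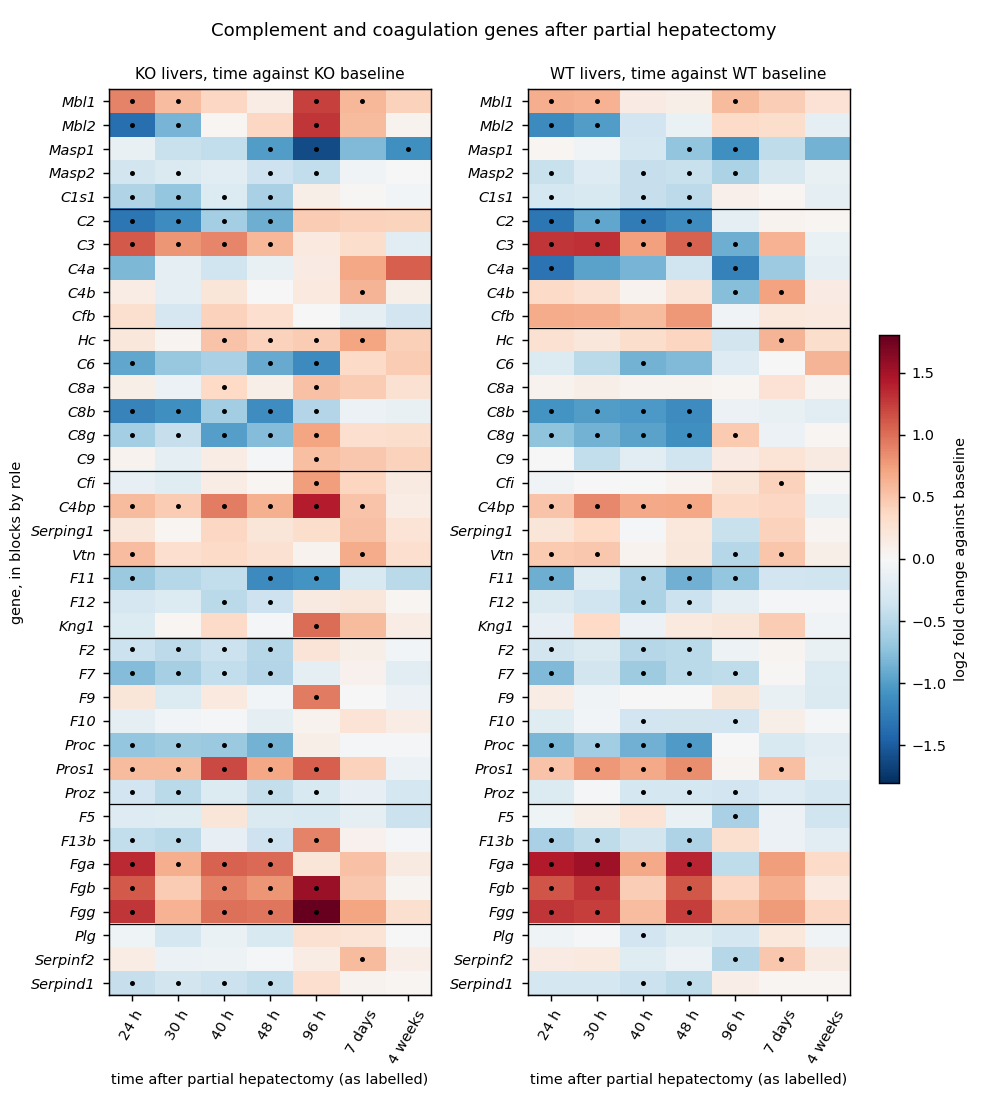
Log2 fold change of 38 complement and coagulation genes at each time against the baseline of the same genotype (KO left, WT right), with genes in rows and blocks by role, and dots at adjusted p under 0.05. Fga, Fgb, Fgg and C3 are red at 24 h in both genotypes, C2 and C8b are blue, and at 4 weeks the only dot is that of Masp1 in KO.

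Among the genes of initiation, the mannose-binding lectins Mbl1 and Mbl2, which recognise microbial sugars, moved in opposite directions. Mbl1 had 284, 315 and 321 CPM at 24 h and 147, 169 and 178 CPM at baseline in KO libraries. In WT libraries it had 271, 329 and 298 CPM at 24 h and 195, 195 and 178 CPM at baseline. All 24 h libraries lay above all baseline libraries of their genotype, with log2 fold changes of 0.89 ± 0.17 in KO (SE, adjusted p = 0.000124) and 0.66 ± 0.17 in WT (adjusted p = 0.00331).

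Mbl2 had 119, 144 and 160 CPM at 24 h and 357, 364 and 366 CPM at baseline in KO libraries. In WT libraries the values were 171, 202 and 136 CPM at 24 h and 447, 306 and 368 CPM at baseline. The groups did not overlap in either genotype, and the log2 fold change was -1.36 ± 0.22 in KO (adjusted p = 1.22e-05) and -1.14 ± 0.21 in WT (adjusted p = 0.000144). Mbl2 was also lower at 30 h, at -0.83 in KO and -1.01 in WT, and higher than baseline in KO at 96 h (1.28 ± 0.21). C1s1, which encodes the C1s protease of the classical pathway, fell by 0.54 on the log2 scale at 24 h in KO and by 0.31 in WT. Masp1 changed late: its log2 fold change was -1.01 in KO and -0.71 in WT at 48 h, and -1.61 in KO and -1.11 in WT at 96 h. Masp2, the lectin pathway protease that cleaves C4 and C2, was lower at 24 h by 0.33 ± 0.09 in KO and by 0.40 ± 0.09 in WT, a fall called in FPKM in KO (-0.28) and not in WT (-0.26).

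Of the convertase genes, C3 rose and C2, the protease subunit of the classical convertases, fell. C3 had 19608, 17167 and 16213 CPM at 24 h and 6940, 9083 and 8581 CPM at baseline in KO libraries. In WT libraries it had 17454, 20816 and 20560 CPM at 24 h and 5898, 8998 and 9391 CPM at baseline. No baseline library reached the level of any 24 h library, and the log2 fold change was 1.11 ± 0.23 in KO (adjusted p = 0.000364) and 1.28 ± 0.23 in WT (adjusted p = 6.79e-05). Over the whole course the mean level of C3 in KO was, in the order of the 8 conditions from baseline to 4 weeks, 8202 ± 1121, 17663 ± 1751, 14164 ± 1140, 15046 ± 1546, 12414 ± 957, 9272 ± 1402, 10240 ± 258 and 7080 ± 1138 CPM (SD, n = 3, and n = 2 at 7 days). In WT it was 8096 ± 1914, 19610 ± 1871, 20018 ± 4414, 13488 ± 1281, 16864 ± 8098, 4407 ± 278, 12485 ± 5445 and 7469 ± 1445 CPM at the same 8 conditions (SD, n = 3, and n = 2 at 30 h and 48 h).

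C2 had 10.2, 9.93 and 8.02 CPM at 24 h and 30.0, 19.8 and 19.8 CPM at baseline in KO libraries, and 8.5, 15.6 and 9.38 CPM at 24 h and 31.5, 25.4 and 25.2 CPM at baseline in WT libraries. The log2 fold change was -1.30 in both genotypes (SE 0.21 and adjusted p = 1.18e-05 in KO, SE 0.20 and adjusted p = 1.14e-05 in WT). Every 24 h library lay below every baseline library of its genotype. In the FPKM table the fall at 24 h was called too, at -1.33 in KO and -1.16 in WT on the log2(FPKM + 1) scale. C4b, the gene of complement C4, was not called at any of the first 4 times in either genotype, with log2 fold changes of 0.13 ± 0.17 in KO and 0.34 ± 0.17 in WT at 24 h. C4a was at -0.81 ± 0.48 in KO and, called, at -1.33 ± 0.46 in WT at 24 h (adjusted p = 0.0361), but in FPKM at 0.02 in KO and -0.54 in WT, neither called. C4b was called at 7 days, where it was 0.61 ± 0.19 above baseline in KO (adjusted p = 0.0445) and 0.73 ± 0.17 in WT (adjusted p = 0.0108).

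In the terminal group, which builds the membrane attack complex, the 3 subunit genes of C8 took different courses. C8b, the beta chain, had 250, 243 and 238 CPM at 24 h and 581, 557 and 545 CPM at baseline in KO libraries. In WT libraries it had 251, 342 and 262 CPM at 24 h and 581, 597 and 621 CPM at baseline. The 24 h libraries lay far below those of baseline without overlap, with a log2 fold change of -1.20 ± 0.13 in KO (adjusted p = 2.26e-08) and -1.07 ± 0.13 in WT (adjusted p = 1.97e-07). C8b was also called lower at 30, 40 and 48 h in both genotypes, between -0.62 and -1.13 on the log2 scale, and at 96 h in KO (-0.53 ± 0.13), and it was not called at 7 days or 4 weeks. C8g, the gamma chain, was lower by 0.61 in KO and 0.73 in WT at 24 h, and then higher than baseline at 96 h by 0.71 in KO and 0.47 in WT. C8a, the alpha chain, was called higher in KO at 40 h (0.36 ± 0.14) and at 96 h (0.53 ± 0.14) and at no time in WT, where its log2 fold changes ranged from 0.03 to 0.26. Hc, the mouse gene of C5, was higher at 7 days by 0.71 ± 0.16 in KO and by 0.61 ± 0.14 in WT. C9, which polymerises to line the pore, was called higher in KO at 96 h by 0.54 ± 0.14 and at no time in WT. C6 was lower at 24 h in KO by 0.94 ± 0.30, and its log2 fold change in WT was -0.25 ± 0.29 at 24 h and, as its only WT call, -0.85 ± 0.30 at 40 h.

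The regulator C4bp, the gene of C4b-binding protein, which helps factor I to inactivate C4b, was the regulator called at all 4 early times. It had 990, 816 and 869 CPM at 24 h and 599, 607 and 592 CPM at baseline in KO libraries, and 876, 968 and 987 CPM at 24 h and 712, 631 and 627 CPM at baseline in WT libraries. The groups did not overlap, and the log2 fold change was 0.57 ± 0.14 in KO (adjusted p = 0.00299) and 0.52 ± 0.14 in WT (adjusted p = 0.00673). Vtn, whose product restrains the terminal complex, was higher at 24 h by 0.55 in KO and 0.47 in WT. Cfi, the factor I protease, was called higher at 7 days in WT (0.42 ± 0.12) and at 96 h in KO (0.75 ± 0.12). Serping1, the C1 inhibitor gene, was not called at any time in either genotype, with log2 fold changes of 0.04 to 0.53 in KO and -0.40 to 0.42 in WT.

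Of the 10 contact and vitamin K-dependent genes, 5 fell at 24 h in KO (F11, F2, F7, Proc and Proz) and 4 in WT (F11, F2, F7 and Proc), and Pros1 rose in both. F11, the factor XI gene, was lower at 24 h by 0.67 in KO and 0.88 in WT, and at 48 h by 1.15 in KO and 0.87 in WT. Proc, the gene of the anticoagulant protein C, was lower at 24 h by 0.70 ± 0.13 in KO and by 0.82 ± 0.13 in WT, and at 48 h by 0.85 ± 0.13 in KO and by 1.02 ± 0.15 in WT. F7, the factor VII gene, fell by 0.78 at 24 h in KO and by 0.79 in WT. F12, the factor XII gene of contact activation, was called lower at 40 h, by 0.48 in KO and by 0.57 in WT, and at 48 h, by 0.37 in KO and by 0.39 in WT. Serpind1, which encodes the thrombin inhibitor heparin cofactor II, was lower at 24 h by 0.41 ± 0.13 in KO, and in WT it was at -0.32 ± 0.13 and not called until 40 h.

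Several members of these groups had few calls. F10, the factor X gene, was called at no time in KO and in WT at 40 h (-0.34 ± 0.12) and 96 h (-0.35 ± 0.12). F5, the gene of the cofactor factor V, was called once, in WT at 96 h (-0.58 ± 0.14). F9 and Kng1 were each called once, in KO at 96 h, at 0.93 ± 0.15 for F9 and 1.00 ± 0.17 for Kng1.

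F2, the prothrombin gene, had 1483, 1565 and 1435 CPM at 24 h and 1948, 1875 and 2033 CPM at baseline in KO libraries. In WT it had 1536, 1849 and 1452 CPM at 24 h and 1975, 1914 and 2209 CPM at baseline. The fall was small and without overlap, at -0.39 ± 0.12 in KO (adjusted p = 0.015) and -0.33 ± 0.12 in WT (adjusted p = 0.0366). Plg, the plasminogen gene, was not called at 24 h, with a log2 fold change of -0.08 ± 0.13 in KO and in WT, and its only call over the course was -0.34 ± 0.13 in WT at 40 h (adjusted p = 0.0418).

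Pros1, whose product is the cofactor of activated protein C, rose. It had 110, 87.1 and 109 CPM at 24 h and 72.0, 67.1 and 67.1 CPM at baseline in KO libraries, and 107, 96.3 and 83.4 CPM at 24 h and 63.9, 60.1 and 77.3 CPM at baseline in WT libraries. All 24 h libraries were above all baseline libraries, and the log2 fold change was 0.57 ± 0.16 in KO (adjusted p = 0.00771) and 0.51 ± 0.16 in WT (adjusted p = 0.0176). At 40 h it reached 1.19 ± 0.16 in KO and 0.68 ± 0.16 in WT.

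Fibrinogen, whose alpha, beta and gamma chains are encoded by Fga, Fgb and Fgg side by side on chromosome 3 (GRCm38, Fgg at 83007724 to 83015049, Fga at 83026076 to 83033627 and Fgb at 83040141 to 83049863), gave the largest called rises of the members at 24 h together with C3. Fga had 9602, 9076 and 11814 CPM at 24 h and 3935, 3610 and 4463 CPM at baseline in KO libraries. In WT libraries it had 9459, 13714 and 10283 CPM at 24 h and 4159, 3966 and 4302 CPM at baseline. The 24 h levels exceeded every baseline level, and the log2 fold change was 1.34 ± 0.24 in KO (adjusted p = 6.65e-05) and 1.43 ± 0.24 in WT (adjusted p = 3.16e-05). Fgb rose by 1.10 ± 0.26 in KO and by 1.13 ± 0.26 in WT, and Fgg by 1.29 ± 0.26 in both. F13b, the carrier subunit of the factor XIII that cross-links fibrin, fell in the same livers, by 0.45 ± 0.13 in KO and by 0.59 ± 0.13 in WT. Serpinf2, the antiplasmin gene, was higher at 7 days by 0.57 ± 0.15 in KO and by 0.48 ± 0.13 in WT.

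C3 and the fibrinogen chains carried the change in the set's share of all counts. The 38 genes together held 6.57 ± 0.32% of counts in KO and 6.96 ± 0.56% in WT at 24 h, against 4.26 ± 0.19% in KO and 4.1 ± 0.26% in WT at baseline (SD, n = 3 each). Of this, C3 with Fga, Fgb and Fgg made up 4.39 ± 0.29% in KO and 4.65 ± 0.48% in WT at 24 h, against 1.97 ± 0.17% in KO and 1.85 ± 0.19% in WT at baseline. The other 34 genes held 2.18 ± 0.09% in KO and 2.31 ± 0.13% in WT at 24 h, against 2.29 ± 0.07% in KO and 2.25 ± 0.09% in WT at baseline. A list of 8 acute phase markers outside the set (Saa1, Saa2, Lcn2, Hp, Orm1, Orm2, Itih4, Apcs) summed to 49407 to 60242 CPM in KO and 52763 to 62945 CPM in WT at 24 h, against 5143 to 5501 CPM in KO and 4698 to 5184 CPM in WT at baseline. All 8 were called higher in both genotypes. The 10 hepatocyte markers summed to 76262 to 89024 CPM in KO and 77724 to 94226 CPM in WT at 24 h, against 102114 to 111431 CPM in KO and 108974 to 124883 CPM in WT at baseline. Of them 3 were called lower in KO (median log2 fold change of the 10 -0.39), and in WT 5 were called lower and 1 higher (median -0.52). Of 5 cholangiocyte markers tested 1 was called higher in KO and 4 in WT, and of 6 neutrophil and monocyte markers 1 in KO and 3 in WT. The part of these lists in the rises and falls of the members was not tested.

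Changes continued at later times. In KO, 17 members were called at 30 h, where 33.1% of all genes were, with 5 higher (17.0% of all genes) and 12 lower (16.1%). At 40 h 17 were called, where 35.6% of all genes were, with 8 higher (17.9%) and 9 lower (17.7%). At 48 h 22 were called, where 36.0% were, with 7 higher (19.0%) and 15 lower (17.0%), and at 96 h 20, where 44.0% were, with 14 higher (21.9%) and 6 lower (22.1%). In KO the calls were mostly lower at 30 and 48 h and mostly higher at 96 h with TMM scaling. In WT, 14 members were called at 30 h, where 17.7% of all genes were, with 8 higher (9.33%) and 6 lower (8.35%). At 40 h 19 were called, where 36.5% were, with 4 higher (19.2%) and 15 lower (17.3%). At 48 h 20 were called, where 31.0% were, with 6 higher (15.6%) and 14 lower (15.4%), and at 96 h 14, where 27.4% were, with 2 higher (12.8%) and 12 lower (14.6%). With total counts in place of TMM factors the split at 96 h in KO turned to 10 higher and 14 lower, at 40 h in WT to 8 and 8, and at 48 h to 10 and 10 in KO and 9 and 8 in WT. The WT group at 48 h rested on 2 unlike libraries. C3 was at 11138 CPM in one and 22590 CPM in the other, with Fga at 6544 and 14876 CPM and the acute phase sum at 14474 and 62264 CPM. Without the lower of them, replicate 2, 12 members were called, and 8 were called in WT at 30 h without replicate 3. In WT at 96 h, 7 were called without replicate 1 and 9 without replicate 2.

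At 7 days 6 members were called in each genotype, all higher, where 5.56% of all genes were called in KO (3.06% higher) and 3.56% in WT (2.25% higher). The KO calls were Mbl1, C4b, Hc, C4bp, Vtn and Serpinf2. The WT calls were C4b, Hc, Cfi, Vtn, Pros1 and Serpinf2. Most of the set lay above baseline, called or not: 30 of the 38 in KO and 25 in WT had a log2 fold change above 0. The medians were 0.33 in KO and 0.14 in WT. Under total counts 24 were above 0 in KO (median 0.19, 2 called) and 27 in WT (median 0.17, 10 called). At an unadjusted p under 0.05 15 were higher and 1 lower in KO, where 22.2% of all genes had such a p in either direction. In WT 14 were higher and 3 lower, where 17.4% of all genes had such a p. The members outside C3 and fibrinogen held 2.71 ± 0.03% of counts in KO (n = 2) and 2.8 ± 0.26% in WT (n = 3) at 7 days, above the baseline shares given earlier. None of them was called in KO without replicate 3 of KO at 7 days, and none in WT without replicate 2 of WT at 7 days, whose acute phase sum was 47648 CPM beside 10158 and 7823 CPM in the other libraries of its group. Leaving out baseline replicates 1, 2 or 3 gave 3, 1 and 3 calls in KO and 0, 2 and 2 in WT. At 4 weeks 1 member was called lower in KO, where 8.57% of all genes were called and 4.28% lower, and none in WT, where 1.17% were called. The KO call was Masp1, with 36.1, 34.1 and 32 CPM at 4 weeks and 71.1, 69.7 and 78.3 CPM at baseline, a log2 fold change of -1.10 ± 0.23 (adjusted p = 0.00452). In WT, Masp1 had 40.3, 38 and 34.4 CPM at 4 weeks and 48.7, 89.3 and 64.9 CPM at baseline, and its log2 fold change of -0.85 ± 0.23 missed the threshold. In WT at 4 weeks edgeR gave 5 of the 38 members at an unadjusted p under 0.05, where 13.9% of all genes had such a p. DESeq2 and limma on the FPKM values called 1 member each there.

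**Figure D2:**
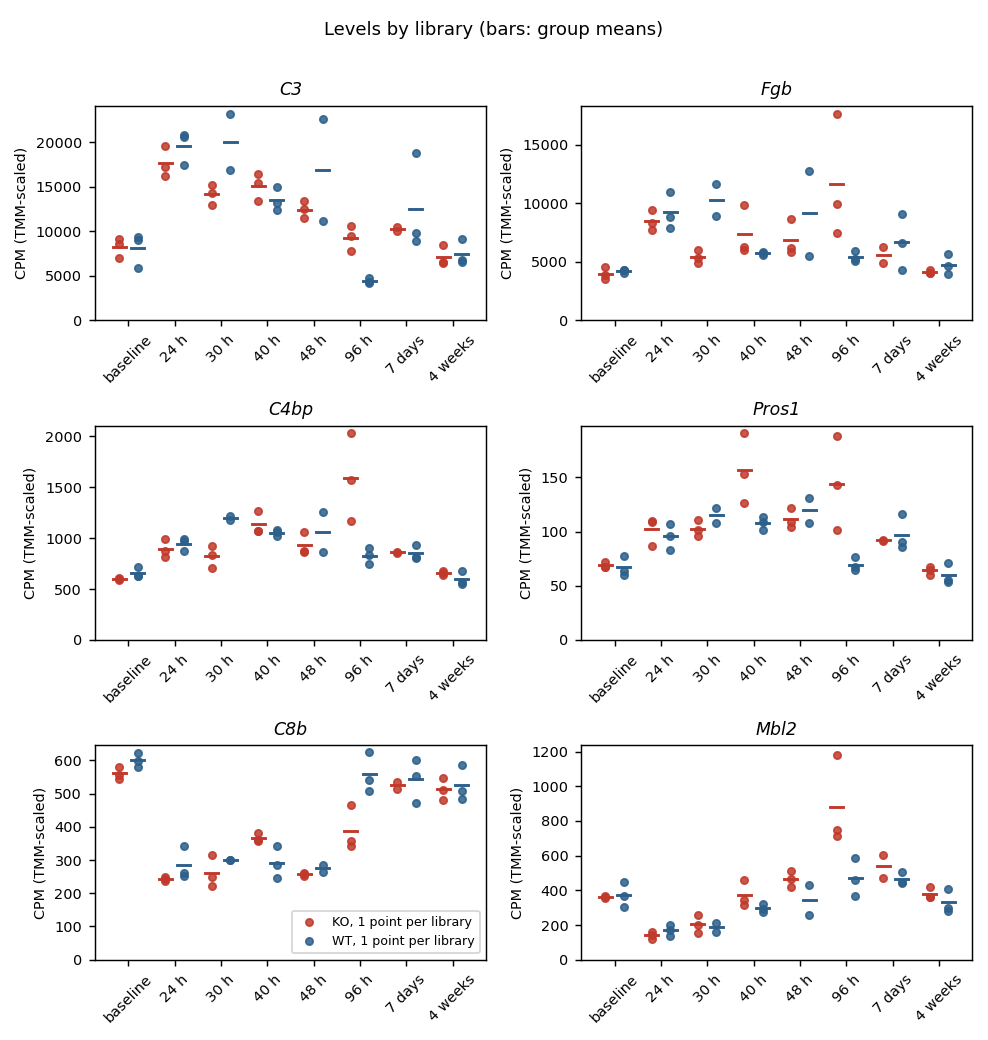
CPM with TMM scaling of C3, Fgb, C4bp, Pros1, C8b and Mbl2 in each library, by time after partial hepatectomy as labelled (KO left of WT, bars at group means). C3 and Fgb are high at 24 h in both genotypes, C8b and Mbl2 are low, and at 96 h the libraries labelled KO lie above those labelled WT for C3, Fgb, C4bp, Pros1 and Mbl2.

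KO and WT livers were then compared at each of the 8 conditions. Before surgery and at 24, 40 and 48 h, 7 days and 4 weeks, edgeR called no member, where 0.0852, 0.0426, 0.142, 0.135, 0.135 and 0.22% of all genes were called. At an unadjusted p under 0.05 edgeR gave 4, 3, 2, 1, 0 and 0 members at these conditions. Of all genes, 7.08, 3.36, 5.59, 4.98, 5.49 and 4.82% had such a p there. Neither DESeq2 nor limma on the FPKM values called a member at any of these conditions. At baseline 32 of the 38 genes had a log2 fold change below 0 with a median of -0.09, but under total counts only 14 did, so no direction of the set is given there. The largest differences with an unadjusted p under 0.05 were -1.36 for C4a at baseline, -0.74 for C6 at 24 h, 0.54 for Pros1 at 40 h and -1.13 for C4a at 48 h.

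At 30 h 2 members, C1s1 and Proz, passed the test, both lower in KO than in WT livers, where 0.937% of all genes were called in either direction and 0.0639% were called lower. C1s1 had 211, 193 and 221 CPM in KO libraries and 282 and 285 CPM in WT libraries. Proz, the gene of protein Z, a cofactor for the inhibition of factor Xa, had 240, 228 and 226 CPM in KO libraries and 332 and 304 CPM in WT libraries. For both genes all KO libraries lay below both WT libraries, with log2 fold changes of -0.45 ± 0.11 for C1s1 (adjusted p = 0.0292) and -0.46 ± 0.12 for Proz (adjusted p = 0.0417). Neither call survived leaving out any of the 5 libraries at 30 h, with adjusted p-values of 0.0529 to 0.487 for C1s1 and 0.0623 to 0.456 for Proz, and DESeq2 called 5 members.

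The rest of the set lay mostly on the same side at 30 h without passing the test. Of the 38 genes, 35 had a log2 fold change below 0 (33 under total counts), with a median of -0.34 beside 0.01 over all genes. An unadjusted p under 0.05 was reached by 17 members, all of them lower in KO, and by 10.7% of all genes in either direction. Such a tally of signs was not particular to 30 h. At 24 h 35 genes were below 0 with a median of -0.12 (33 under total counts), at 48 h 32 with a median of -0.13 (23 under total counts), and at 40 h 30 were above 0 with a median of 0.10 (30 under total counts). For 22 members every KO library lay below both WT libraries, as did 12.2% of all genes tested, and no member lay above in that sense. Fga had 5793, 7065 and 6075 CPM in KO libraries and 9890 and 14057 CPM in WT libraries, and its log2 fold change was -0.92 ± 0.26 (adjusted p = 0.079). Fgb was at -0.92 ± 0.29, Fgg at -0.73 ± 0.28, C4bp at -0.55 ± 0.16 and C3 at -0.50 ± 0.25, all with adjusted p-values over the threshold. The 8 acute phase markers outside the set summed to 34865 to 48212 CPM in KO and 50834 to 72281 CPM in WT at 30 h. None of them was called, and their median log2 fold change was -0.63. Their part in the members' difference was not tested.

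**Figure D3:**
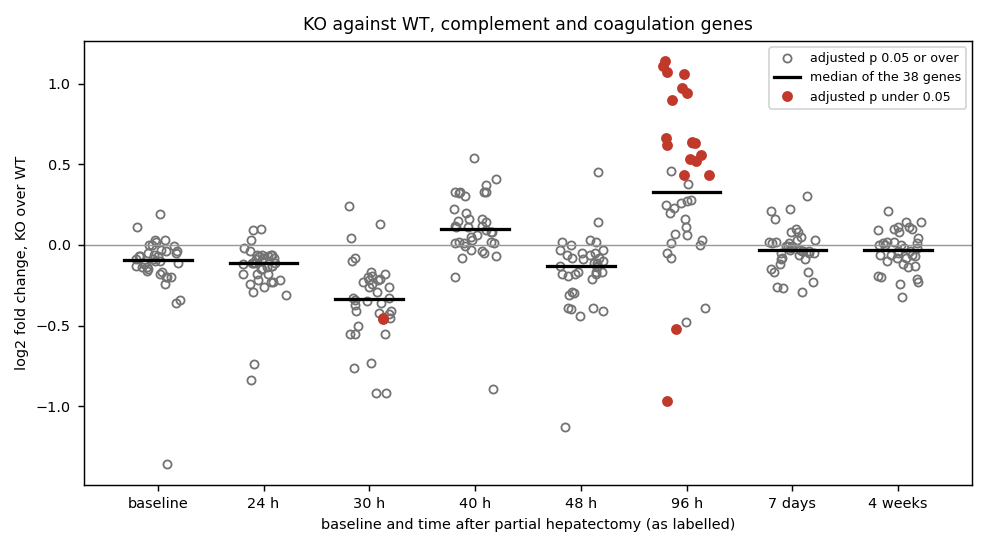
Log2 fold change of KO over WT for 38 complement and coagulation genes at each condition, as labelled, with 1 point per gene, filled where the adjusted p was under 0.05, and a bar at the median. The points lie mostly below 0 at 24, 30 and 48 h, with a median of -0.34 at 30 h, and 18 are filled at 96 h, 16 above 0 and 2 below.

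At 96 h the libraries labelled KO and WT differed in 18 of the 38 genes, 16 higher and 2 lower in those labelled KO, which is 47.4% of the members where 14.3% of all genes were called, 7.22% higher and 7.08% lower. In 17 genes all libraries labelled KO lay above all labelled WT, as did 12.2% of all genes, and in 1 they lay below, as did 11.8%. The 4 complement regulators were all called higher, with C4bp at 0.94 ± 0.14, Serping1 at 0.62 ± 0.16, Cfi at 0.53 ± 0.12 and Vtn at 0.43 ± 0.14 on the log2 scale. Serping1 had 1136, 1029 and 814 CPM in libraries labelled KO and 688, 548 and 702 CPM in those labelled WT. Cfi had 1198, 1050 and 988 CPM in those labelled KO and 837, 736 and 664 CPM in those labelled WT. Vtn had 2220, 2559 and 2190 CPM in those labelled KO and 1840, 1448 and 1892 CPM in those labelled WT. None of the 3 overlapped, and the call of Vtn (adjusted p = 0.0395) ended under total counts (0.24, adjusted p = 0.193) and with no filter on low counts (adjusted p = 0.0581). Of the convertase genes C3 and C4b were called, of the fibrinogen genes Fgb and Fgg, and of the vitamin K-dependent genes Pros1 and F9, the gene of factor IX.

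C3 had 9397, 10607 and 7811 CPM in libraries labelled KO and 4299, 4199 and 4723 CPM in those labelled WT. C4bp had 2033, 1575 and 1165 CPM in those labelled KO and 834, 901 and 751 CPM in those labelled WT. Pros1 had 188, 143 and 101 CPM in those labelled KO and 76.1, 67.2 and 64.3 CPM in those labelled WT. None of these groups overlapped, and the log2 fold changes were 1.07 ± 0.23 for C3 (adjusted p = 0.00155), 0.94 ± 0.14 for C4bp (adjusted p = 6e-05) and 1.06 ± 0.16 for Pros1 (adjusted p = 5.76e-05). C4b had 1696, 1955 and 1417 CPM in those labelled KO and 784, 742 and 1069 CPM in those labelled WT, a log2 fold change of 0.97 ± 0.17 (adjusted p = 0.000293).

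Fgb had 17620, 9955 and 7451 CPM in libraries labelled KO and 5920, 5082 and 5245 CPM in those labelled WT. Fgg had 13005, 7435 and 5479 CPM in those labelled KO and 4497, 3645 and 3619 CPM in those labelled WT. Neither gene overlapped between the groups, and the log2 fold changes were 1.11 ± 0.26 for Fgb (adjusted p = 0.00459) and 1.14 ± 0.26 for Fgg (adjusted p = 0.0028). Replicate 1 of the libraries labelled KO held the highest values, and without it 9 members were called, with Fgb at an adjusted p of 0.0865 and Fgg at 0.0599. The 9 that remained were C3, C4b, C4bp, C8b, Cfi, Hc, Kng1, Pros1 and Serpinf2.

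The remaining calls at 96 h were Mbl2 at 0.90 ± 0.21, Kng1, the kininogen gene, at 0.66 ± 0.17, Hc at 0.64 ± 0.14, Serpinf2 at 0.63 ± 0.13, F9 at 0.56 ± 0.15, Plg at 0.52 ± 0.13 and F13b at 0.43 ± 0.13. Mbl2 had 1183, 746 and 713 CPM in libraries labelled KO and 589, 458 and 370 CPM in those labelled WT. Kng1 had 4779, 4060 and 3606 CPM in those labelled KO and 2808, 2580 and 2494 CPM in those labelled WT. Hc had 997, 1210 and 1055 CPM in those labelled KO and 627, 640 and 825 CPM in those labelled WT. The libraries of the labels did not overlap for these genes, nor for Serpinf2 and Plg. Serpinf2 had 961, 1250 and 1039 CPM in those labelled KO and 698, 634 and 775 CPM in those labelled WT, and Plg 4256, 3348 and 2804 CPM in those labelled KO and 2367, 2523 and 2388 CPM in those labelled WT. F9 had 533, 348 and 260 CPM in those labelled KO and 254, 291 and 225 CPM in those labelled WT. F13b had 524, 400 and 313 CPM in those labelled KO and 289, 376 and 253 CPM in those labelled WT. For F9 and F13b the lowest library labelled KO lay below the highest labelled WT, and the call of F13b (adjusted p = 0.0272) ended under total counts (0.21, adjusted p = 0.172). The 2 genes lower in libraries labelled KO belong to the terminal group. C8b had 357, 341 and 466 CPM in those labelled KO and 508, 540 and 625 CPM in those labelled WT, without overlap and with a log2 fold change of -0.52 ± 0.13 (adjusted p = 0.00636). C6, which binds C5b at the start of pore assembly, had 54.6, 92.4 and 177 CPM in those labelled KO and 110, 210 and 315 CPM in those labelled WT, where the groups overlapped (-0.97 ± 0.30, adjusted p = 0.0263, 0.233 at most without single libraries). In a fit of the 96 h libraries alone 1 member, C3, was called.

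Beside this difference, all 8 acute phase markers outside the set were called higher in libraries labelled KO, with a median log2 fold change of 3.65 and sums of 10604 to 24726 CPM in those labelled KO and 4655 to 5200 CPM in those labelled WT. The hepatocyte markers, which include Alb, summed to 216323 to 360362 CPM in those labelled KO and 114693 to 186183 CPM in those labelled WT. Of the 10, 2 were called higher, and the median log2 fold change of the 10 was 0.12. The 8 neutrophil and monocyte markers summed to 82.0 to 124 CPM in those labelled KO and 55.2 to 62.5 CPM in those labelled WT, with 2 of the 6 tested called higher, and the 7 Kupffer cell markers to 334 to 567 CPM in those labelled KO and 184 to 254 CPM in those labelled WT, with 1 called higher. Their part in the members' differences was not tested.

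The proportion of Fga to the other fibrinogen chains set the 96 h libraries of both labels apart, a comparison chosen after the values were seen and given with no test. The ratio of Fga to Fgb in CPM was 0.253, 0.499 and 0.608 in the 96 h libraries labelled KO and 0.513, 0.473 and 0.687 in those labelled WT, and 0.965 to 1.26 with a median of 1.13 in the other 39 libraries. Every 96 h library, of either label, thus lay below every other library. The ratio of Fgg to Fgb was 0.735 to 0.747 in the 96 h libraries labelled KO, 0.69 to 0.76 in those labelled WT and 0.592 to 0.783 in the other 39, where the ranges overlapped. The FPKM values gave the same separation, with Fga over Fgb at 0.476 to 1.14 where labelled KO, 0.894 to 1.3 where labelled WT and 1.82 to 2.37 in the other 39. Fgb and Fgg stood 1.56 ± 0.27 and 1.79 ± 0.26 above KO baseline at 96 h on the log2 scale, while Fga stood at 0.22 ± 0.24 and was not called.

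**Figure D4:**
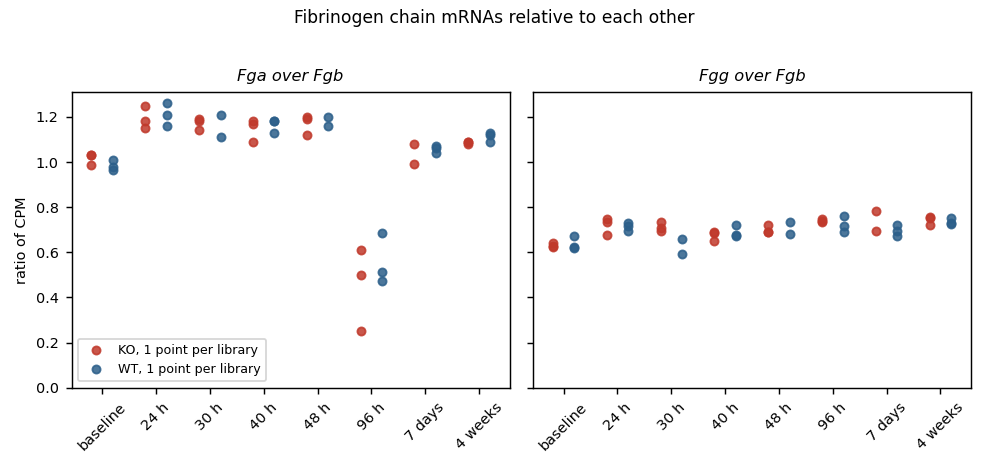
Ratio of Fga to Fgb (left) and of Fgg to Fgb (right) in CPM for each library, by time as labelled, KO left of WT. All 6 libraries of 96 h fall between 0.253 and 0.687 on the left, where the other 39 lie between 0.965 and 1.26, and the ratios on the right lie between 0.592 and 0.783 throughout.

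Over the mean of the 8 conditions 2 members were called, both lower in KO, where 3.14% of all genes were called in either direction and 0.802% lower. With total counts in place of TMM factors the calls were 2 higher and 1 lower: Pros1 (0.20, adjusted p = 0.0159) and Mbl2 (0.25, adjusted p = 0.042) were called higher, C8a (-0.19, adjusted p = 0.0382) stayed, and C4a (-0.59, adjusted p = 0.0609) did not. With TMM factors Pros1 was at 0.19 (adjusted p = 0.0768) and Mbl2 at 0.24 (adjusted p = 0.0925). C8a was lower by 0.21 on the log2 scale (SE 0.05, adjusted p = 0.0123), with a log2 fold change below 0 in 7 of the 8 conditions, 96 h being the exception at 0.16. It had 673, 628 and 691 CPM in KO libraries and 783, 933 and 810 CPM in WT libraries at baseline, 808, 622 and 705 CPM in KO and 853, 929 and 865 CPM in WT at 24 h, and 562, 664 and 635 CPM in KO and 975 and 843 CPM in WT at 30 h. The genotypes did not overlap at these 3 conditions and overlapped at the other 5. The difference was -0.26 without the 96 h libraries (adjusted p = 0.0041), and -0.13 with an adjusted p of 0.131 in the FPKM values, so the call ended there.

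C4a was the other member called in the mean, at -0.61 ± 0.17 (adjusted p = 0.0414). It had 19.1, 14.9 and 9.17 CPM in KO libraries and 40.8, 36.0 and 33.3 CPM in WT libraries at baseline, and 13, 14 and 12.2 CPM in KO and 18.6 and 38.8 CPM in WT at 48 h. The genotypes did not overlap at these 2 conditions, and they overlapped at the others, among them 4 weeks with 21.5, 26.3 and 42.2 CPM in KO and 23.5, 38.6 and 36.4 CPM in WT. Without the 96 h libraries the difference was -0.70 (adjusted p = 0.0143). Leaving out single libraries ended the call in 27 of 45 fits (adjusted p = 0.0192 to 0.139), and in the FPKM values the difference was -0.00 (adjusted p = 0.989). At 96 h limma on the FPKM values called C4a higher in libraries labelled KO (0.99, adjusted p = 0.0123), where edgeR did not call it. Against baseline the FPKM values were called at 0.91 in KO and -0.69 in WT at 96 h, and at 0.82 in KO at 4 weeks.

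C4a lies beside C4b on chromosome 17 (GRCm38, C4a at 34809092 to 34823464 and C4b at 34728380 to 34743882, both on the minus strand) and nearly copies it. Over 5367 aligned bases of their transcripts 96.1% were identical, and 871 of the 5272 windows of 100 bases in C4a (16.5%), the length of 1 read, were also found in C4b. The stretch of 100 bases, aligned without a gap, that holds the most differences is shown, from the GENCODE M21 transcripts, with capitals at the 15 differing bases.
C4a (bases 1212 to 1311 of 5371): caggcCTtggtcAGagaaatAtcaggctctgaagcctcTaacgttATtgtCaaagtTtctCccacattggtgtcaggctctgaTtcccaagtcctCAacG
C4b (bases 1209 to 1308 of 5379): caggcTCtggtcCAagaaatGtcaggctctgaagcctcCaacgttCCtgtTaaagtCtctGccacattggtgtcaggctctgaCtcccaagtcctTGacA
Reads from the shared stretches could be assigned to either gene or to neither, so the counts of C4a are uncertain. C4a is annotated as a processed transcript in GENCODE M21, and its median count was 296, that of C4b 27597.

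Counts and FPKM values gave levels on a like scale for most members and parted for 4. The median CPM per exon kilobase divided by the median FPKM was 0.355 to 1.23 for 34 members, with a median of 0.878. It was 0.00248 for Cfb, 0.0884 for C4a, 0.141 for C2 and 0.257 for Masp2. Cfb encodes factor B, the protease subunit of the alternative convertase, and its median was 66 counts per library but 606 FPKM. Of its exon bases 79.5% overlap Gm20547 on the same strand, a gene of GENCODE M21 that has no row in the count table, as do 42.8% of those of C2. Of the exon bases of Masp2, 54.9% overlap Tardbp on the opposite strand. In CPM Cfb was not called at any time in either genotype, and in FPKM it was called at 96 h in KO, 0.50 above baseline on the log2(FPKM + 1) scale (adjusted p = 0.00242).

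**Figure D5:**
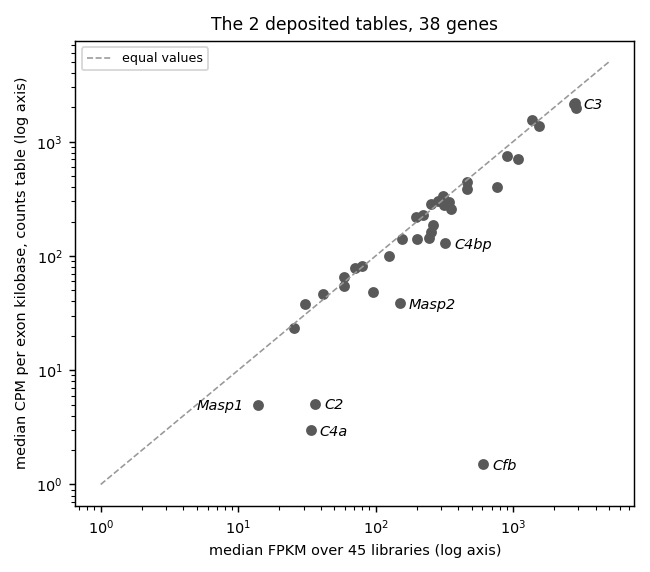
Median over 45 libraries of CPM per exon kilobase from the count table against median FPKM, 1 point per gene, both axes logarithmic, with a dashed line at equal values. Cfb lies far below the line at 606 FPKM, C4a, C2 and Masp2 lie below it too, and the other 34 genes have a ratio of 0.355 to 1.23.

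The time courses of the genotypes differed for 3 of the 38 members in a joint test of the 7 times, where 1.41% of all genes were called. These were C4bp (adjusted p = 0.00457), Pros1 (adjusted p = 0.0135) and C4b (adjusted p = 0.026). All 3 calls rested on 96 h: without those libraries no member was called, and the adjusted p-values were 0.595 for C4bp, 0.631 for Pros1 and 0.914 for C4b. Under total counts the call of C4b ended (adjusted p = 0.108). DESeq2 called 15 members. Leaving out 1 library gave 1 call without WT 96 h replicate 2, 8 without KO 96 h replicate 3, 9 and 6 without WT 48 h replicates 2 and 3, 5 without KO 48 h replicate 3, and 5 and 6 without WT 7 days replicates 2 and 3.

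Further genes of these pathways outside the set were counted as well, from a list chosen with earlier results of these data known. Of 68 listed, 63 were in the table and 60 were tested. At 24 h 12 rose and 9 fell in KO, where 11.5% of all genes were called higher and 12.2% lower. In WT 12 rose and 9 fell too, where 10.5% of all genes were called higher and 11.9% lower. Fgl1, which encodes a secreted relative of fibrinogen, reached 2150 ± 155 CPM at 24 h in KO and 2257 ± 132 CPM in WT, against 157 ± 31.2 CPM in KO and 139 ± 5.33 CPM in WT at baseline (SD, n = 3 each). Its log2 fold change was 3.78 ± 0.42 in KO and 4.02 ± 0.42 in WT.

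Between the genotypes, 10 of the 60 were called at 96 h, 8 higher and 2 lower in libraries labelled KO, a share near the 14.3% of all genes called there, with Fgl1 at 2.87 ± 0.40 (1883 ± 827 CPM in those labelled KO, 257 ± 66 CPM in those labelled WT). Elsewhere the calls were Susd4, a complement-binding membrane protein gene, at baseline and A2m, the gene of the protease inhibitor alpha-2-macroglobulin, at 30 h. Susd4 stood at 12.3 ± 3.61 CPM in KO and 35.7 ± 12.2 CPM in WT at baseline (log2 -1.54 ± 0.32, adjusted p = 0.0385), and A2m at 0.897 ± 0.325 CPM in KO (n = 3) and 21.6 ± 10.5 CPM in WT (n = 2) at 30 h (log2 -4.55 ± 0.99, adjusted p = 0.022). In the mean of the 8 conditions Susd4 (-0.73 ± 0.11), C1ra (-0.14 ± 0.03), a gene of the C1r protease, and Lman1 (-0.12 ± 0.03), a cargo receptor gene for factors V and VIII, were called lower in KO.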

How the data were processed

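The 45 liver RNA libraries were poly(A) selected and read as 100 base pairs from both ends. Per the submitters' processing notes the tools named were FastQC 0.11.5, Trimmomatic, TopHat2 2.1.0, HTSeq, Cufflinks 2.2.1 and DESeq2, with build mm10. The deposited count table holds whole counts per gene, and the deposited FPKM table holds FPKM values per gene. Which annotation and strand option were used for counting is not given in the sources used here, so reads shared by overlapping genes may be assigned in either way.

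Counts were tested with edgeR 4.0.16 (quasi-likelihood, TMM scaling, filterByExpr, robust) in R 4.3.3 on 16 group means of all 45 libraries, with Benjamini-Hochberg adjustment over 14090 genes. FPKM values were tested with limma 3.58.1 on log2(FPKM + 1) for genes with a mean of at least 0.5, and DESeq2 1.42.0 was an alternative for counts. Standard errors are the log2 fold change over the square root of its F. Figures were drawn with matplotlib 3.10.9. The alternatives were RLE scaling, total counts, no filter, DESeq2, FPKM, a replicate block, fits of the compared groups, omission of the 96 h libraries and omission of each library. The code of the fit was run on counts simulated from its own means and spreads, with changes added at 30 h. Such counts cannot show that the fit suits these data.

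The members and all lists were chosen with earlier results of these data known. The rule for members given most fully took those called between genotypes, those with the largest called rise or fall of a role group against baseline, and C3, Fga, Fgb, Fgg, C4a, C4b, F2 and Plg; of the second kind, values by library are given for some only. Libraries held 12851359 to 23133501 counts. The median count was 296 for C4a and 66 for Cfb, which limits precision for these 2 genes.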

Additional observations from a re-analysis of the deposited data

Results flagged for a closer look

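The time course after surgery differed between KO and WT livers, by the joint test of the 7 times in edgeR, for C4bp (adjusted p = 0.00457), Pros1 (adjusted p = 0.0135) and C4b (adjusted p = 0.026). At 96 h, which carried these differences, the libraries labelled KO were higher by 0.94 ± 0.14 for C4bp, 1.06 ± 0.16 for Pros1 and 0.97 ± 0.17 for C4b on the log2 scale, with no overlap between the 3 libraries of each label for any of these genes. Without 96 h the adjusted p-value was 0.595 for C4bp, 0.631 for Pros1 and 0.914 for C4b. Under total counts C4b was not called in the joint test (adjusted p = 0.108).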

How the results depend on the processing

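No member named with a call in the comparison of KO with WT changed sign. With total counts the calls turned to 10 higher and 14 lower at 96 h in KO against baseline (14 and 6 with TMM; median -0.18, with TMM 0.22) and to 2 higher and 1 lower in the mean of KO against WT (0 and 2 with TMM), and the median of KO against WT at baseline was 0.04 (-0.09 with TMM). For KO against WT, the 2 members called at 30 h became 5 with DESeq2, 1 with FPKM, 1 with the replicate block, and 0 with total counts, no filter or the compared groups only (0 to 0 leaving out 1 library). The 18 at 96 h became 1 in the compared groups only (9 to 21). The 2 in the mean became 1 with no filter and 1 with the replicate block (1 to 3, with 1 in 25 of 45 fits). The 3 in the joint test became 15 with DESeq2 and 0 without 96 h (1 to 9).

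Against baseline, WT gave 8 to 13 calls at 30 h leaving out 1 library (14 in all), 12 to 20 at 48 h and 11 in the compared groups only (20), and 7 to 17 at 96 h (14). WT at 7 days (6) gave 10 with total counts, 3 with no filter, 11 with FPKM, 0 in the compared groups only and 0 to 5 leaving out 1 library. WT at 4 weeks (0) gave 1 with DESeq2, 1 with FPKM, 1 without 96 h and 0 to 1. KO at 7 days (6) gave 12 with DESeq2, 2 with total counts, 3 with no filter, 3 with the replicate block and 0 to 5. KO at 4 weeks (1) gave 3 with RLE, 4 with DESeq2, 3 with total counts, 8 with FPKM, 9 in the compared groups only and 4 without 96 h. The cause was not tested.

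Total counts moved the median log2 fold change of all genes to between -0.39 (KO, 96 h) and 0.18 (WT, 48 h). Deviations of same-numbered libraries correlated at -0.385 to 0.377 over 21 pairs, with a median of 0.123 and 11 over 0.1. The main fit did not treat the numbers as pairs, and the replicate block ended 7 of 166 named results. DESeq2 ended 0 of them, RLE scaling 4, FPKM 17, total counts 17, and no filter 18. Fits of the compared groups only ended 41 named results and kept 120. Leaving out single libraries ended a named result in 207 cases and kept it in 951, counted per result and fit. C4a and Cfb rest on few counts.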
